A study of Homo sapiens with 12 samples.

Results

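The genes described are the subunits of the human proteasome with its activators and assembly factors, 41 of the 20212 genes counted. They were taken by symbol: 14 subunits of the 20S core (PSMA and PSMB genes), 18 subunits of the 19S regulatory particle (PSMC and PSMD genes, among them the base chaperone PSMD5), and 9 activators, receptors and assembly factors (PSME1 to PSME4, ADRM1, PSMG1 to PSMG3 and POMP). PANC-1 cells, an established human pancreatic ductal cancer line, received either DMSO or 50 nM rapamycin, an inhibitor of the mTORC1 kinase complex, for 60 min. There were 3 cultures per treatment, each sequenced both as ribosome-protected fragments (RF) and as total RNA, which makes 12 libraries. Both treatments share the same unmodified line and medium, and 1 line stands for pancreatic cancer cells here. The labels call the cultures biological replicates.

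The proteasome degrades proteins that carry ubiquitin chains. Its core is a stack of alpha and beta rings, and 3 of the beta subunits cut peptides inside the chamber. The regulatory particle caps the core: its ATPase ring unfolds substrates, its receptors bind ubiquitin and its lid removes the chains. PSMG and POMP chaperones build the core in order, and the PSME proteins open it without ATP. mTORC1 acts on translation most directly through mRNAs that begin with a 5′ terminal oligopyrimidine (TOP) run, a C followed by pyrimidines at the cap, as ribosomal protein mRNAs do.

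The 5′ ends below are shown because that run is a sequence feature by which mRNAs are known to respond to rapamycin. The authors also name TOP-like and PRTE motifs, which were not searched for here. Each line gives the first 20 bases of the gene's RefSeq-matched isoform in the GENCODE annotation of GRCh37, with the opening run of pyrimidines in capitals. PSMB5, a catalytic core subunit, is the member with a TOP run, and the run of PSMA1, a subunit of the alpha ring, was 1 pyrimidine too short to count. PSMA4, PSMD1 and PSMD14 had the smallest p-values for translation, PSMC4 had by far the highest level, and RPS16, a ribosomal protein gene near PSMC4, is shown for comparison.
PSMB5 (chr14:23504090-23504109, minus strand): CTTTCTgcccacactagaca
PSMA1 (chr11:14541913-14541932, minus strand): CTCTgtagatcgctgagcga
PSMA4 (chr15:78832786-78832805, plus strand): atattagcagcggttattcg
PSMD1 (chr2:231921581-231921600, plus strand): gtcctggcgagaagcgagcc
PSMD14 (chr2:162164936-162164955, plus strand): aagtgcttcgcggcggaggc
PSMC4 (chr19:40477072-40477091, plus strand): agatcatcccaggccacaca
RPS16 (chr19:39926570-39926589, minus strand): CCTTTTCCggttgcggcgcc

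A TOP run, read as C in the first base followed by at least 4 pyrimidines, was present in 1 of the 41 members (2.44%). It was present in 692 of the 12932 tested genes with an annotated isoform (5.35%) and in 59 of 82 ribosomal protein genes (72.0%). Annotated starts were read, not starts measured in these cells, so a missing run says only that these letters are not at the annotated end. For some members the isoform read was scarce in total RNA. In PSMG1, PSMC6 and PSMA5 it had 0.48, 0.47 and 0.60 FPKM (defined below), and the genes 52.8, 81.8 and 107 in DMSO. The run was not counted over the most expressed isoforms.

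RF totals ranged from 278835 to 1574723 reads per library and total RNA totals from 78081241 to 94293744. A count of 0 allows up to 3 reads, which is 1.91 to 10.8 CPM (counts scaled to a library of 1000000) in the RF libraries and at most 0.0384 in total RNA, for counting error only. DMSO RNA replicates 1 and 2 stood apart from the other RNA libraries, with 16840 and 16858 genes detected against 19751 to 19847. Of 6 ductal markers, the keratins KRT8, KRT18 and KRT19 were high in every RNA library (at least 1326 FPKM, fragments scaled to transcript length and library size), while SOX9 had 19.96 to 22.5 FPKM, KRT7 9.83 to 12.02 and EPCAM 4.58 to 5.03. KRT7 was near the median (11.7 FPKM) of the 12766 tested genes with RF and total RNA both above 0 in DMSO, and EPCAM below it. Of 8 markers of other cell types, CD68 was above 1 FPKM (69.0 to 88.3), and PTPRC, which defines leukocytes, was at most 0.215. The 6 markers, mostly through these 3 keratins, summed to between 4712 and 4789 FPKM in DMSO and between 4508 and 4776 in rapamycin.

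Every member passed the minimum of 10 reads over the RF and 10 over the RNA libraries. Reads per member summed over the 6 RF libraries ran from 104 (PSMG3) to 13238 (PSMC4), with a median of 800. Together the members held between 0.858% and 1.01% of the RF reads and between 0.979% and 1.03% of the total RNA counts of a library. PSMA1 and PSMA2 each have a second row under an overlapping gene identifier, so their reads are split and their single-row values are uncertain. In addition, 76.1% of the exon bases of PSMC1 lie on exons of NRDE2 on the other strand, and 17 members have pseudogenes that carry their name. Values of these genes may include or lose reads from such copies.

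PSMC4, an ATPase of the 19S ring, stood far above every other proteasome gene. Its total RNA in DMSO was 1522 ± 42.7 FPKM (SD, n = 3), 5.20 times that of PSMB1, the next highest member at 293 ± 6.85 FPKM. Its RF density, in RF reads per kilobase of coding length and 1000000 RF reads, was 2089 ± 255 in DMSO. The next highest, again PSMB1, was 659 ± 44.4, and the median of the other 40 members was 14.8 times lower than PSMC4. PSMC4 alone took between 26.5% and 28.5% of all proteasome RF reads, and between 27.9% and 28.4% of proteasome total RNA counts, in each library. The ring is built with 1 copy of each of its 6 ATPases. In DMSO, the RF densities of the other 5 were 159 for PSMC5, 135 for PSMC3, 114 for PSMC2, 61.3 for PSMC6 and 37.4 for PSMC1. With the coding isoform of highest FPKM, PSMC6 had 91.1 and PSMC3 140, and the rest of the ring was unchanged. The value of PSMC1 is uncertain, with 13 pseudogenes that carry its name and its overlap with NRDE2.

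**Figure D1:**
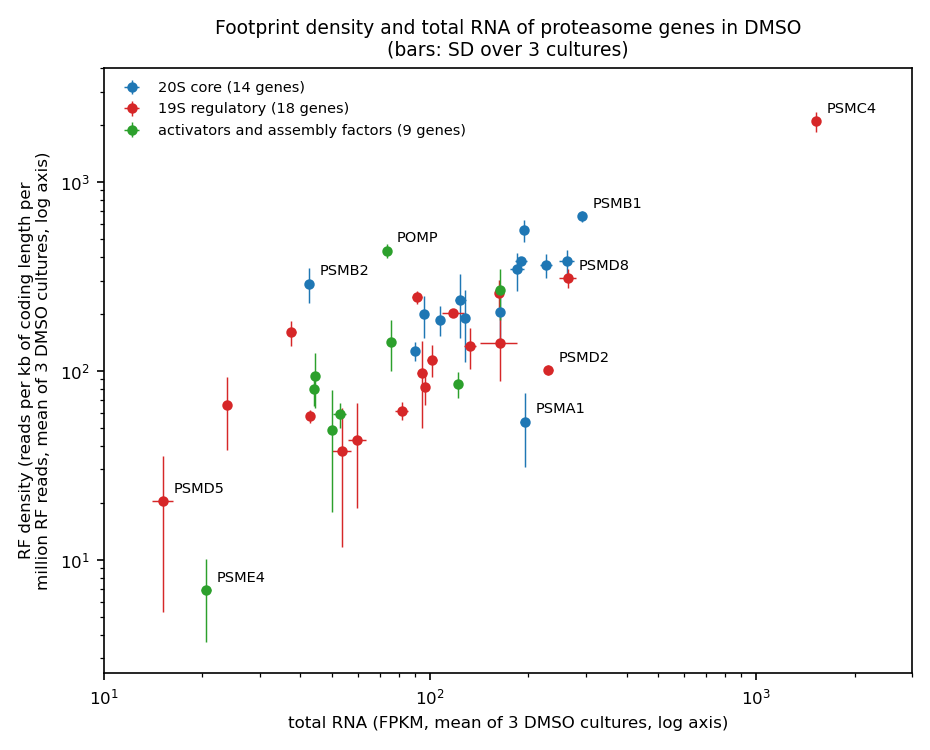
RF density (RF reads per kilobase of coding length and 1000000 RF reads) against total RNA (FPKM) for the 41 genes in DMSO, both on log axes, as means of 3 cultures with SD bars and colour by class. PSMC4 lies alone at the upper right (1522 FPKM, RF density 2089), and PSME4 has the lowest RF density (6.88). PSMA1 is plotted with the RF reads of its first row alone.

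PSMC4 was high in both library types and did not stand out in the ratio of the 2. Its log2 ratio of RF density to FPKM, 0.46, was at the 55.4th percentile of the 12766 genes with both values above 0. The gene lies at chr19:40477072-40487671 (GRCh37). PSMC4 itself not included, 29 protein-coding genes start from −700 to 350 kb of its start. Of these, 12 (41.4%) were above the 95th percentile of all genes in total RNA (82.8 FPKM). Among them were RPS16 (3400 FPKM), FBL (1434), AKT2 (900), TIMM50 (862), PAF1 (485) and SUPT5H (416). Genes outside these limits were also high, among them ACTN4 (1311 FPKM), EIF3K (1248) and RPS19 (1014). From 350 to 2000 kb beyond, 2 of 51 genes were above that level (3.92%), and from −2000 to −700 kb, 9 of 39 were (23.1%). These limits were set after the levels were seen and have no test. Amplification of this part of chromosome 19 is known in PANC-1 as background. Copy number was not measured here, and its part in the level of PSMC4 was not tested.

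**Figure D2:**
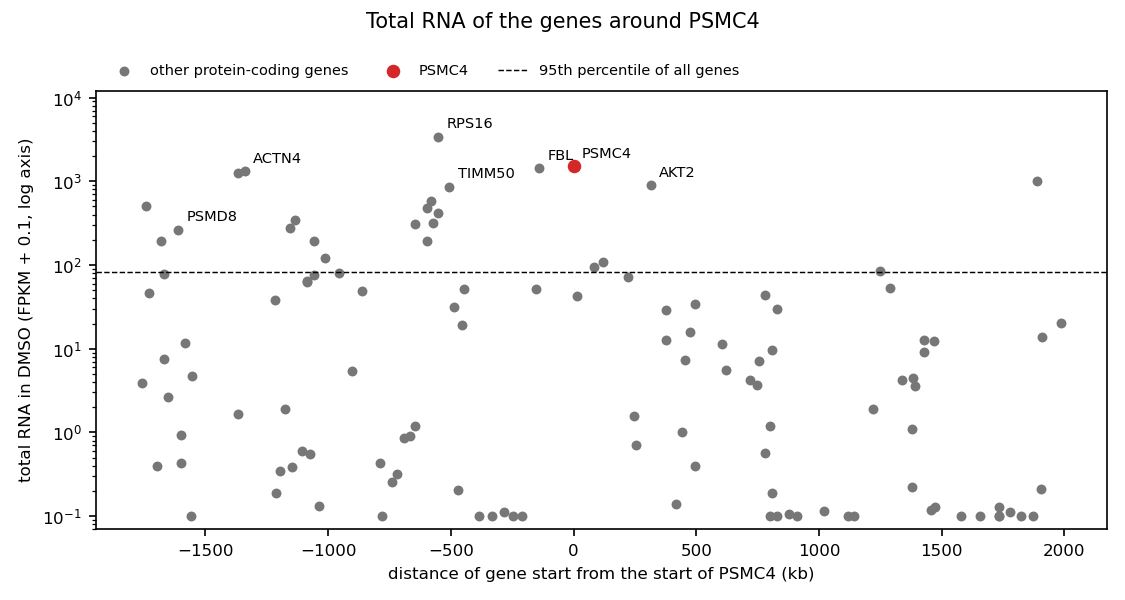
Total RNA in DMSO (FPKM plus 0.1, log axis, mean of 3 cultures) of the protein-coding genes around PSMC4, by the distance of their start from that of PSMC4 in kilobases, with the 95th percentile of all genes dashed. FBL and AKT2, at −140 and 314 kb, have 1434 and 900 FPKM, while the nearest gene, ZNF546 at 13.0 kb, has 42.8. From 350 kb onwards, 2 of the 51 genes are above the dashed line.

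The other core and regulatory genes were well expressed and less far apart. The median RF density in DMSO was 263 over the 14 core genes, 101 over the 17 regulatory genes without PSMC4 and 85.1 over the 9 activators and assembly factors. The median of all genes with both values was 11.1. Of the core genes, 10 lay within 2-fold of the core median. The core particle holds its 14 kinds of subunit in equal number, yet their densities ran from 53.7 ± 22.6 (PSMA1) to 659 (PSMB1), a ratio of 12.3. The low end is the split row of PSMA1. Without that gene, the lowest core gene by coding length was the catalytic PSMB5 at 127 ± 14.8. The other catalytic subunits, PSMB6 and PSMB7, had 238 ± 88.5 and 189 ± 77.6, so the SD ranges of PSMB5 and PSMB7 overlap, and those of PSMB7 and PSMB6, while those of PSMB5 and PSMB6 do not.

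Within the regulatory particle, PSMD5, a chaperone that leaves the finished particle, was lowest in RF density (20.4 ± 15.1) and in total RNA (15.1 ± 1.09 FPKM). The lid deubiquitinase PSMD14 had 245 ± 19.96, and the ubiquitin receptors PSMD4 and PSMD2 had 140 ± 52.3 and 101 ± 6.15. PSMD2 was the regulatory gene with the lowest RF density for its RNA, with 230 FPKM and a log2 ratio of −1.19. Among the assembly factors, POMP, the core maturation chaperone, had the highest RF density (432 ± 36.8) on 73.5 FPKM of RNA. PSMB2, a core beta subunit, had 42.6 FPKM, the lowest FPKM in the core, with an RF density of 289 ± 59.3. Its ratio was the highest of all members (log2 ratio 2.76), at the 82.7th percentile of the 12766 genes with both values above 0. In counts not scaled to length, PSMB2 had 135 CPM of total RNA in DMSO, as did PSMB7 (128 FPKM). PSME4, the large nuclear activator PA200, had the lowest RF density (6.88 ± 3.23) on 20.6 FPKM. Across the 41 genes, log density and log FPKM correlated with r = 0.77 (Spearman's rho 0.65), and with r = 0.71 without PSMC4. This describes genes that share libraries and length estimates, and carries no p-value. PSMA1 enters with the RF reads of its first row alone, beside 195 FPKM, while its second row had at most 0.487 FPKM in DMSO.

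The main comparison was whether rapamycin changed the translational efficiency (TE) of these genes, the RF level relative to total RNA. With edgeR's quasi-likelihood test and Benjamini-Hochberg adjustment, 0 proteasome genes passed 0.05 in TE, and 0.0% of the 13329 genes tested did. At an unadjusted p under 0.05, TE was lower in rapamycin in 3 members (7.32%), PSMA4, PSMD1 and PSMD14, against 6.42% of all genes. It was higher in 0 members, against 6.17%. The median log2 fold change was −0.03 over the members and −0.06 over all genes, with 21 of the 41 members lower, against 53.7% of all genes, and 20 higher, against 46.3%. This order rested on single cultures: without rapamycin replicate 1 the medians were −0.16 and −0.11, with 31 members lower, and without DMSO replicate 2 they were −0.13 and −0.04. By class, the median was 0.09 in the core (6 of 14 lower), −0.04 in the regulatory particle (11 of 18 lower) and 0.01 in the activators and assembly factors (4 of 9 lower).

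**Figure D3:**
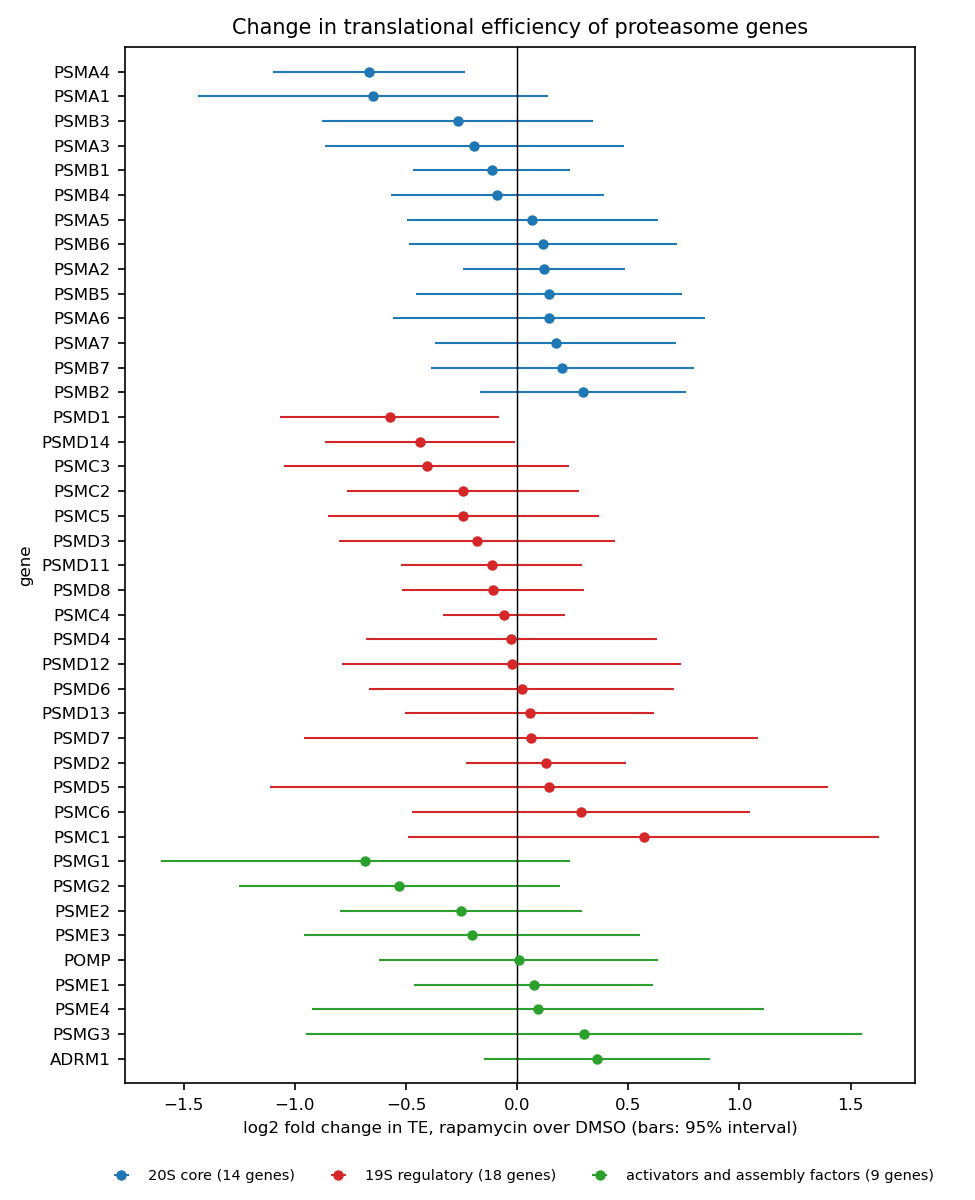
Log2 fold change in TE, rapamycin over DMSO, with 95% intervals from edgeR for each of the 41 genes, grouped and coloured by class and ordered within it. Of the intervals, 3 lie wholly below 0 (PSMA4, PSMD1 and PSMD14), and none of these genes passed the adjusted test.

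PSMA4, a subunit of the alpha ring, had RF levels of 366, 553 and 437 CPM under DMSO. Under rapamycin they were 305, 275 and 259 CPM, in the order of the replicates. All 3 rapamycin cultures were below all 3 DMSO cultures. Its total RNA was 282 ± 4.65 CPM in DMSO and 277 ± 13.8 in rapamycin. The log2 fold change in TE was −0.67 ± 0.20 (SE; adjusted p = 0.231, edgeR; unadjusted p = 0.00515). An exact permutation test over the 6 cultures gave p = 0.1, two-sided, the smallest that 3 against 3 allows.

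PSMD1, the larger scaffold of the base, had 215, 210 and 306 RF CPM in DMSO and 183, 169 and 126 in rapamycin. Again the treatments did not overlap, while total RNA was 361 ± 2.35 CPM in DMSO and 355 ± 6.72 in rapamycin. The log2 fold change in TE was −0.57 ± 0.23 (adjusted p = 0.331, edgeR; unadjusted p = 0.0250).

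PSMD14, which cuts ubiquitin chains from substrates, had 228, 230 and 249 RF CPM in DMSO and 190, 172 and 136 in rapamycin, without overlap. The log2 fold change in TE was −0.44 ± 0.20 (adjusted p = 0.385, edgeR; unadjusted p = 0.0452).

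The core assembly chaperones PSMG1 and PSMG2 also had lower RF levels in all 3 rapamycin cultures, on few reads. PSMG1 had 17, 48 and 66 RF reads in DMSO and 42, 33 and 3 in rapamycin, or 52.3, 60.3 and 44.8 CPM against 34.8, 39.9 and 9.98. Its log2 fold change in TE was −0.68 ± 0.43 (adjusted p = 0.540, edgeR), and in TE the cultures overlapped. PSMG2 had 55.4, 84.2 and 57.7 RF CPM in DMSO and 39.8, 48.4 and 49.9 in rapamycin, with a log2 fold change in TE of −0.53 ± 0.34 (adjusted p = 0.545, edgeR). The third chaperone of the set, PSMG3, had a log2 fold change of 0.30 ± 0.58, with a 95% interval from −0.95 to 1.55 that holds the values of PSMG1 and PSMG2. POMP had 178, 182 and 205 RF CPM in DMSO and 207, 114 and 233 in rapamycin, with a log2 fold change in TE of 0.01 ± 0.29.

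**Figure D4:**
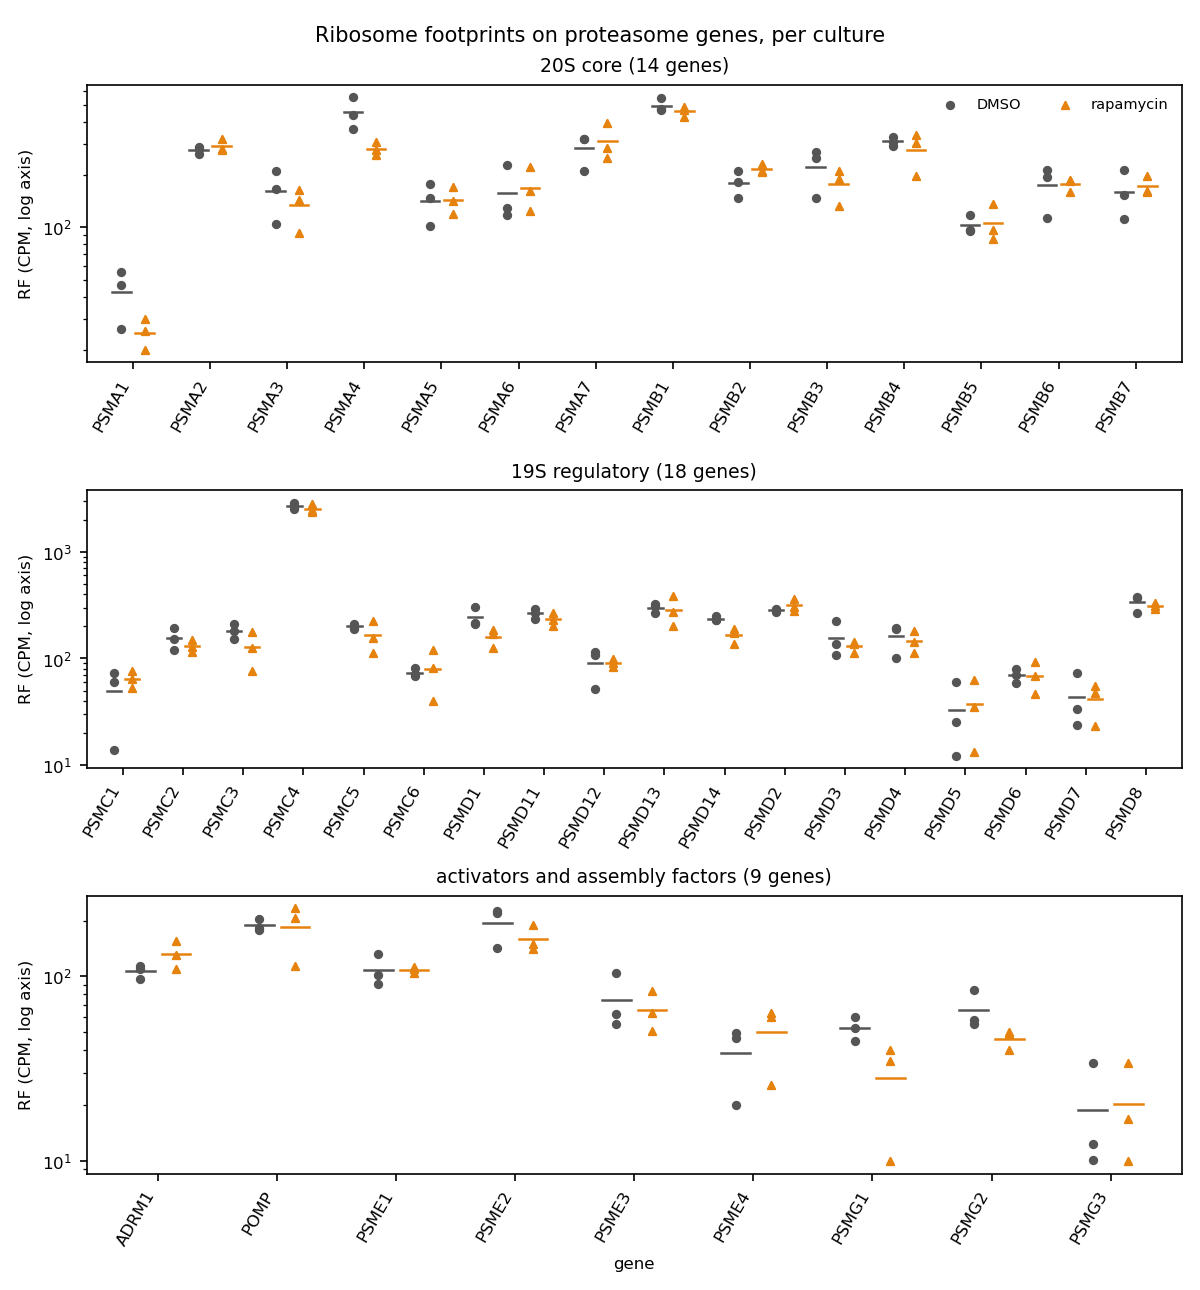
RF level (TMM-scaled CPM, log axis) of each of the 41 genes in the 3 DMSO (grey circles) and 3 rapamycin cultures (orange triangles), with bars at the means, in 1 panel per class. The rapamycin cultures of PSMA4, PSMD1, PSMD14, PSMG1 and PSMG2 lie below all of their DMSO cultures, and PSMC4 stands between 2339 and 2881 CPM.

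The treatments did not overlap in TE in 4 members (PSMA4, PSMD1, PSMD14 and PSMG2), each lower in rapamycin, or 9.76%, against 6.19% of all genes. In RF alone they did not overlap in 5 members, each lower, or 12.2%, against 4.21% of all genes. In 0 members were all rapamycin cultures higher, against 4.8% of genes in TE and 5.24% in RF. In the edgeR test of RF alone, 0 members passed the adjusted threshold (0.0% of all genes). At an unadjusted p under 0.05, 2 were lower, PSMA4 and PSMD1, against 1.92% of all genes, and 0 were higher, against 1.76%. The RF log2 fold change was below 0 in 24 of 41 members, against 48.7% of all genes, and its median was −0.05, beside 0.02 over all genes. Without rapamycin replicate 1, the members' median was −0.27 and that of all genes −0.04.

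DESeq2's Wald test, run on the same counts, called 5 members in TE at an adjusted p under 0.05. PSMD14 (adjusted p = 0.00203), PSMA4 (0.00518), PSMD1 (0.0184) and PSMG2 (0.0410) were lower in rapamycin, 9.76% of the members against 4.37% of all genes. ADRM1, a ubiquitin receptor of the 19S particle, was higher (adjusted p = 0.0178), 2.44% against 4.91%. ADRM1 had 114, 109 and 97.1 RF CPM in DMSO and 156, 110 and 130 in rapamycin, with overlap. Its log2 fold change in TE was 0.36 ± 0.24 in edgeR (adjusted p = 0.566). In RF alone DESeq2 called 0 members, against 0.0075% of genes lower and 0.03% higher, and in total RNA also 0, against 0.03% lower and 0.188% higher. In edgeR, replicates of RF varied by 54.9% and those of total RNA by 5.31% (biological coefficient of variation), and the joint model of TE took 24.4%, a spread below that of RF alone. On simulated counts the edgeR test of TE called unchanged genes more often than its adjusted threshold allows, and DESeq2 was not tested in that way.

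No member had a higher TE in rapamycin that passed edgeR's adjusted threshold. PSMC1, an ATPase, had the highest log2 fold change in TE, 0.57 ± 0.50 (adjusted p = 0.676, edgeR). Its RF reads gave 73.8, 13.8 and 60.5 CPM in DMSO and 76.3, 64.1 and 53.2 in rapamycin, so DMSO replicate 2 sat low and the other 5 cultures overlapped. Without that culture the log2 fold change of PSMC1 was 0.09, below the 0.39 of ADRM1. PSMB2 was highest in the core at 0.30 ± 0.22, with 181, 147 and 209 RF CPM in DMSO and 211, 207 and 230 in rapamycin (adjusted p = 0.607, edgeR).

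The catalytic subunits had intervals that span 0: the log2 fold change in TE was 0.14 ± 0.28 for PSMB5, 0.11 ± 0.28 for PSMB6 and 0.20 ± 0.28 for PSMB7. PSMB5, the member with a TOP run, had 95.4, 96.8 and 118 RF CPM in DMSO and 135, 85.9 and 96.5 in rapamycin. Its treatments overlapped. The ubiquitin receptors PSMD2 and PSMD4 gave 0.13 ± 0.17 and −0.03 ± 0.31. PSMD5 and PSME4, the members with the lowest density in their classes, gave 0.14 ± 0.59 and 0.09 ± 0.47.

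PSMC4, with the most reads, was measured most tightly. Its RF level was 2701, 2513 and 2881 CPM in DMSO and 2812, 2449 and 2339 in rapamycin, and its log2 fold change in TE was −0.06 with a 95% interval from −0.34 to 0.22. Across the members, the half-width of that interval ran from 0.28 to 1.25, with a median of 0.60. For 29 of the 41 genes the interval lay within −1 to 1, so a 2-fold change of TE was outside it as fitted. For the other 12 the interval reached past a 2-fold change, in PSMA4 and PSMD1 with intervals narrower than that median. The joint model took a spread (24.4%) below that of RF alone (54.9%), so these intervals may be too narrow. For PSMC4 the SE was 0.13 in TE and 0.18 in RF alone. In RF alone, 27 intervals lay within −1 to 1.

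PSMA1 depends on which of its rows is read. The first row had 18, 21 and 69 RF reads in DMSO and 36, 21 and 6 in rapamycin, and a log2 fold change in TE of −0.65 ± 0.37. With both rows summed the reads were 75, 149 and 437 in DMSO and 378, 176 and 58 in rapamycin, and the log2 fold change was 0.05. All exon bases of the second identifier lie on exons of PSMA1 or of COPB1, its neighbour. Summing the rows of PSMA2, whose second row held at most 44 RF reads in a library, left 0 members called.

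Total RNA of the members was nearly level, with a small shift towards lower values in rapamycin. No member passed the adjusted threshold in edgeR (0.0% of all genes). The log2 fold change was below 0 in 32 of 41 members (78.0%), against 46.8% of all genes, and its median was −0.03, beside 0.01 over all genes. Between cultures, the members' median log2 level had an SD of 0.021 in total RNA, 0.149 in TE and 0.142 in RF. On the FPKM values, with limma-trend on log2(FPKM + 1), 33 members were lower, against 58.6% of all genes, and the medians were −0.03 and −0.01. In the core, 13 of 14 genes were below 0. In 10 members all rapamycin cultures were below all DMSO cultures, or 24.4% against 6.61% of all genes, and in 0 all were above, against 8.22%. These were PSMA3, PSMA5, PSMB5, PSMC2, PSMC6, PSMD7, PSMD11, PSMD13, PSMD14 and POMP. Members are not replicates, so the count has no p-value. Against DMSO replicate 3 alone, without the replicates 1 and 2 that stood apart, 33 of 41 members were lower with a median of −0.03, beside 48.1% and 0.00 over all genes.

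Single genes moved little. PSMD13, a lid subunit, had 293, 281 and 280 CPM of total RNA in DMSO and 268, 260 and 272 in rapamycin, and the treatments did not overlap (log2 fold change −0.09 ± 0.03, unadjusted p = 0.0167, adjusted p = 0.766, edgeR). PSMB5 had 93.8, 98.2 and 94.5 CPM in DMSO and 90.4, 85.1 and 90.8 in rapamycin (−0.11 ± 0.04, unadjusted p = 0.0193, edgeR). PSMD7, also of the lid, gave −0.11 ± 0.04 (unadjusted p = 0.0308, edgeR). These 3 members (7.32%) were lower at an unadjusted p under 0.05, against 2.51% of all genes, and 0 were higher, against 3.32%. PSME4 had the highest log2 fold change in total RNA, 0.21 ± 0.16, through 1 library: it had 230 CPM in rapamycin replicate 2 and between 152 and 160 in the other 5.

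**Figure D5:**
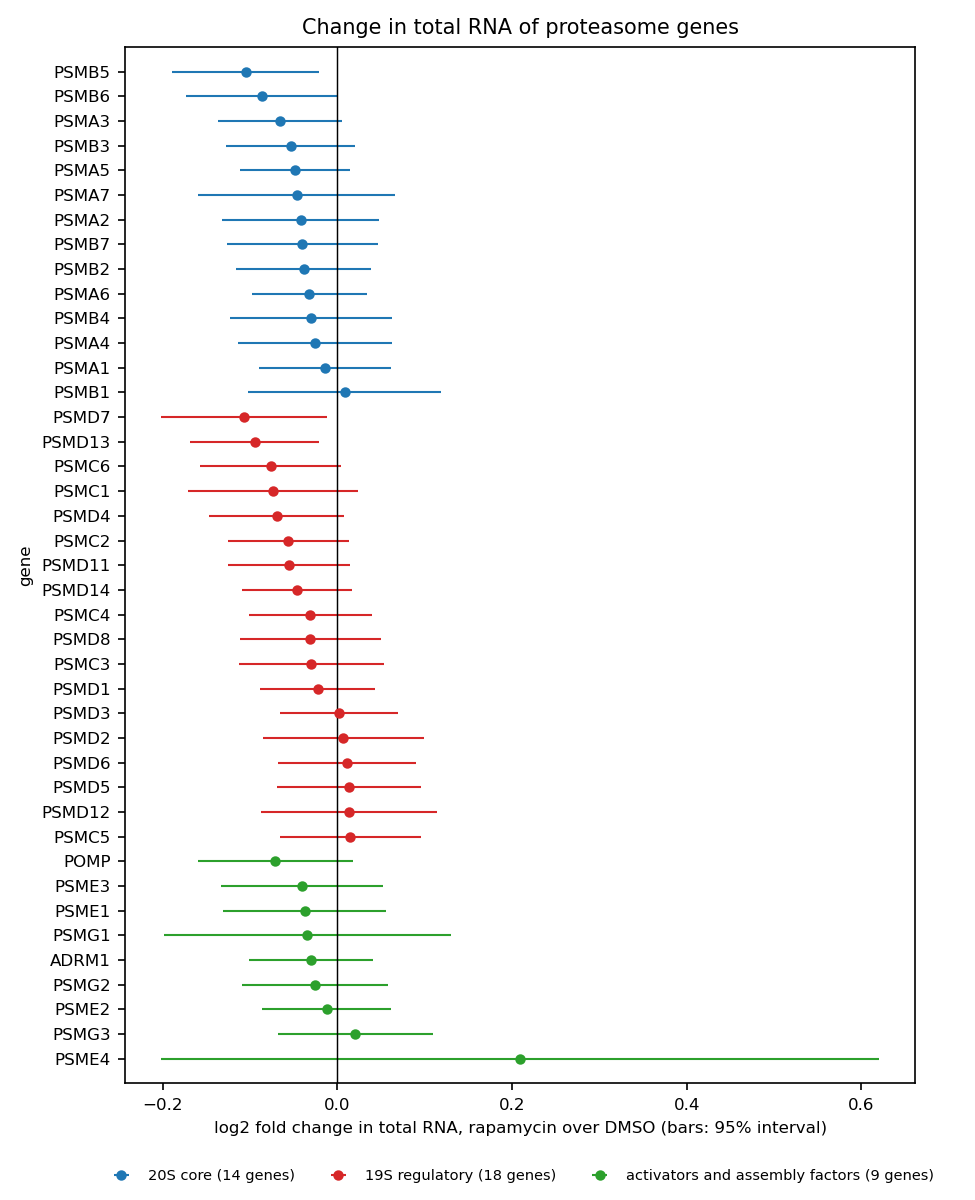
Log2 fold change in total RNA, rapamycin over DMSO, with 95% intervals from edgeR for each of the 41 genes, grouped and coloured by class. The points lie between −0.11 and 0.02 except PSME4 at 0.21, and 32 of the 41 are below 0.

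Of the other genes of the ubiquitin and proteasome pathway, 38 were tested, and 0 passed the adjusted threshold in TE, RF or total RNA with edgeR. In TE, 23 of the 38 were lower (60.5%), against 53.7% of all genes, with a median log2 fold change of −0.16, beside −0.06. At an unadjusted p under 0.05, 5 of the 38 were lower, a larger share than the 6.42% of all genes. Higher were 2 of the 38, a smaller share than 6.17%. PSMF1, the proteasome inhibitor PI31, had 45, 151 and 156 RF reads in DMSO and 80, 60 and 20 in rapamycin (log2 fold change in TE −1.07 ± 0.30, adjusted p = 0.231, edgeR). USP14, a deubiquitinase that binds the base reversibly, had 45, 223 and 162 reads in DMSO and 115, 75 and 17 in rapamycin (−1.43 ± 0.46, adjusted p = 0.244, edgeR). In RF alone the log2 fold change of USP14 was −1.10 ± 0.37. Its total RNA gave 0.35 ± 0.22, with 6502 RNA counts in rapamycin replicate 2 and 4286 to 4501 in the other RNA libraries. UBA6, a ubiquitin-activating enzyme, gave −0.85 ± 0.29 and UBE3A, a ubiquitin ligase, −1.16 ± 0.45. PSMB10, an inducible catalytic subunit of the immunoproteasome, gave 1.42 ± 0.48 on between 11 and 54 RF reads per library. Its sister subunits PSMB8 and PSMB9 gave 0.77 ± 0.52 and 0.18 ± 0.40. NFE2L1, the transcription factor that raises proteasome genes when the enzyme is inhibited, gave −0.12 ± 0.22. DESeq2 called 3 of the 38 lower in TE, a larger share than the 4.37% of all genes, and 0 higher, beside 4.91%. The adjusted p in DESeq2 was 0.000515 for UBA6, 0.00473 for PSMF1 and 0.0351 for SHFM1 (SEM1), while USP14 was not called (0.0590). SHFM1 gave −0.61 ± 0.34 in edgeR (adjusted p = 0.471).

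RF and total RNA were both scaled to their library totals, so a change shared by all genes does not appear in any of these values. Fewer cells of a type and less RNA per cell cannot be told apart in bulk lysates.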

How the data were processed

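RF and total RNA libraries of 6 PANC-1 cultures were grouped by their labels. The authors filtered RF reads for quality and length, removed linkers and ribosomal RNA reads, aligned with HISAT2 to GRCh37, and deposited raw counts from featureCounts, in which each uniquely aligned read on an exon of a protein-coding gene counts once. The authors also deposited FPKM values of genes and isoforms of the total RNA libraries, from Cuffnorm (Cufflinks 2.2.1). The columns of the authors' own TE comparison (ratios, fold changes and p-values) were not used. Strand handling of the counting is not given in the sources used here.

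The software was edgeR 4.0.16, DESeq2 1.42.0 and limma 3.58.1 in R 4.3.3, and scipy 1.17.1 and pandas 2.3.3 in Python 3.11.15. TMM factors were computed per library type, and printed CPM values carry them. A gene entered the tests with 10 or more counts over the RF and 10 or more over the RNA libraries, 13329 in all. TE was tested as the interaction term of treatment and library type by edgeR's robust quasi-likelihood method, and the treatment effect was tested in each library type on its own. The Benjamini-Hochberg adjustment covered every gene tested. For log2 TE per culture, with a prior count of 2, two-sided exact permutation tests were run. On simulated counts that kept the separate spreads of RF and total RNA, the edgeR fits returned the simulated sizes of change, but called a minority of the changed genes in TE and in RF, and the TE fit called unchanged genes more often than its adjusted threshold allows.

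RF density is RF reads per kilobase of coding length and 1000000 RF reads. Coding lengths, coordinates and 5′ ends come from GENCODE version 44 on GRCh37, a later version than the authors' annotation, for the MANE Select isoform, which matches RefSeq (otherwise the Ensembl canonical isoform or the longest complete coding sequence). They stand in for the RefSeq protein lengths first planned. The reads lie on all exons, UTRs included. PSMB3 was matched by symbol.

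Genes were named by rule: members past an adjusted p of 0.05 or, in TE, an unadjusted one, the extremes of TE change and RF density in each class, the catalytic subunits, the ubiquitin receptors, PSMD14, POMP, and members whose RF or TE did not overlap between treatments. Of the pathway list, those at an unadjusted p under 0.05 in TE were named, up to 5 of the 7. PSMA2, PSMA6, PSMB8, PSMB9, PSMC2, PSMC3, PSMC5, PSMC6, PSMD7, PSMD11, PSMD13, PSMG3, SHFM1, NFE2L1, the members listed for total RNA and the neighbours of PSMC4 were named after their values were seen. The members and lists were chosen with earlier results of these data known.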

Additional observations from a re-analysis of the deposited data

How the results depend on the processing

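Members called stayed at 0 in TE, RF and total RNA with edgeR under DESeq2 size factors, both other count minimums, the replicate block, summed PSMA1 and PSMA2 rows and without each culture. They were also 0 in TE with TMM over all libraries, limma voom and the culture block, and in total RNA with limma-trend on FPKM, which were run for these alone. DESeq2's Wald test called 5 in TE (PSMD14, PSMA4, PSMG2 and PSMD1 lower, ADRM1 higher) and 0 in RF and total RNA, and the cause of the difference was not tested. The median log2 fold change of the members without each culture ranged from −0.16 to 0.00 in TE, from −0.27 to −0.0178 in RF and from −0.05 to −0.02 in total RNA. With a replicate block the TE median was −0.01, the RF median −0.09 and the number of members called 0. Correlations of same-numbered deviations between the treatments ran from −0.12 to −0.06 in RF and from −0.22 to −0.11 in total RNA. Between RF and total RNA of the same culture they ran from −0.096 (DMSO replicate 3) to 0.0081 (rapamycin replicate 1). A shared culture is thus not visible in this measure, so it cannot decide whether replicate numbers pair the cultures.

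Of the named genes, PSMA4, PSMD1, PSMD14, PSMG1, PSMG2, ADRM1, PSMB1, PSMB2, PSMC1 and PSMD2 kept their direction in TE under all alternatives run. POMP, at 0.01, turned to −0.0650 with TMM over all libraries, −0.0800 with limma voom, −0.00140 with the replicate block and −0.0239 with the culture block. PSMA1 turned to 0.0467 with its rows summed, an alternative chosen after seeing the data, as was leaving out DMSO RNA replicates 1 and 2. Without single cultures TE ranged from 0.09 to 0.99 for PSMC1, from −0.14 to 0.24 for POMP, from −0.51 to 1.06 for PSMD5, from −0.30 to 0.19 for PSMD4, from −0.25 to 0.39 for PSME4, from −0.15 to 0.29 for PSMB6, from −0.00955 to 0.44 for PSMB7, from −0.11 to 0.27 for PSMB5 and from −0.15 to 0.00215 for PSMC4. The ratio of the highest to the lowest core density was 15.5 with exonic in place of coding length and 12.3 with the coding isoform of highest FPKM, also chosen after seeing the data, which moved the densities of 11 members by at most 1.49-fold. With exonic length and without PSMA1, the lowest core gene was PSMA6 (23.1), and PSMB5 (64.6) was near the core median (63.3). In TE, 12 of the 41 members have intervals that reach past a 2-fold change, and depth and replicate spread were not separated as limits. The intervals come from the joint model, whose spread was below that of RF alone, and may be too narrow.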
